A study of Mus musculus with 6 samples.

Results

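Ankyrins and proteins of the 4.1 family fasten membrane proteins to the spectrin and actin skeleton under the plasma membrane. The 7 genes described are Ank1, Ank2 and Ank3, which encode ankyrin-R, ankyrin-B and ankyrin-G, and Epb4.1, Epb4.1l1, Epb4.1l2 and Epb4.1l3, which encode proteins 4.1R, 4.1N, 4.1G and 4.1B. They were chosen by name, with earlier results of these data known. Their NOVA clusters were all those lying on the same strand within the GENCODE vM1 span of the gene by at least 1 nt. This gave 57 of the 9988 NOVA1 clusters and 158 of the 36591 NOVA2 clusters of the series.

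The study used wild-type CD1 mice, and cortex was taken at embryonic day 18.5. HITS-CLIP irradiates tissue with ultraviolet light to fix proteins to the RNA they touch, pulls 1 protein down with its antibody, and sequences the attached fragments. The 3 NOVA1 libraries and the 3 NOVA2 libraries came from the same kind of tissue and differed in the protein recovered. Each list pooled its 3 libraries, and the value of a cluster is a pooled number of unique sequence tags, so no spread between replicates was measurable and no test between the lists was made. The NOVA2 list was the larger one. Both lists began at 10 tags and kept clusters found in at least 2 of the 3 libraries. A position without a cluster is only one that did not meet both conditions. Whether the value is the total of a cluster or the height of its peak is not given in the sources used here, and sums of tags over clusters are sums of that value. Tag numbers depend on binding and on the amount of each RNA, which cannot be told apart in these lists.

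NOVA1 and NOVA2 are neuronal splicing regulators that bind YCAY, where Y is C or U. In many known targets, binding in the intron downstream of an alternative exon goes with its inclusion, and binding upstream of it or within it goes with skipping. Ankyrins join spectrin to ion channels, transporters and adhesion molecules of the L1 family, and long neuronal forms of ankyrin-B and ankyrin-G contain a giant exon absent from the forms of other tissues. Protein 4.1R strengthens the contact of spectrin with actin, and its spectrin and actin binding domain is encoded in part by alternative exons. All 7 genes have annotated alternative exons, which is why the clusters were placed relative to them.

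Each of the 7 genes had at least 1 NOVA2 cluster within 500 nt of a cassette exon, that is, an internal exon lying wholly within an intron of another transcript of the gene. The share of all genes with such a cluster was not counted. In Ank1, Epb4.1l1 and Epb4.1l3 the only such cluster had 11, 13 and 14 tags, near the minimum of 10. In Ank3 the only such cluster touched an exon that is skipped only together with at least 2 other exons. For each gene the strongest intronic cluster near a cassette exon is printed, because the placement relative to alternative exons rests on these sequences. Each is on the mRNA strand of mm9, 5′ to 3′, in DNA letters, with every YCAY in capitals. For Ank2 the 300 nt richest in YCAY of a 339-nt cluster are given.
Ank1 chr8:24220898-24221054, 11 tags: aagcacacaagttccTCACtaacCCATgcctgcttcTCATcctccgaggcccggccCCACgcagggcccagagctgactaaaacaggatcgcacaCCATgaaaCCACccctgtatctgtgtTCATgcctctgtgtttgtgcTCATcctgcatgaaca
Ank2 chr3:126682083-126682382, 129 tags: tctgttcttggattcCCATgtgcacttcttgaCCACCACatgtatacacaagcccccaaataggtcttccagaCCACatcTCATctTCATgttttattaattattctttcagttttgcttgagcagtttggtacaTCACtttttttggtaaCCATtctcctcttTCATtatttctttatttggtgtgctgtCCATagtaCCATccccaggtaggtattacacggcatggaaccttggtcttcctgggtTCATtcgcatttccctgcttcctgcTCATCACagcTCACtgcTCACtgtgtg
Ank3 chr10:69395078-69395180, 66 tags: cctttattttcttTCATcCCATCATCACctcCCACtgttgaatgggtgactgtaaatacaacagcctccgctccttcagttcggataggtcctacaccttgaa
Epb4.1 chr4:131519003-131519144, 112 tags: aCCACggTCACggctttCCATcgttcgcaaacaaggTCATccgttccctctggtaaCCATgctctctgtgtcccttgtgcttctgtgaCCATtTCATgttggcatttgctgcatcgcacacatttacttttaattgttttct
Epb4.1l1 chr2:156337548-156337671, 13 tags: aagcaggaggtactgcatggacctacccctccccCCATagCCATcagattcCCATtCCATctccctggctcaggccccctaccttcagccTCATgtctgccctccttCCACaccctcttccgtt
Epb4.1l2 chr10:25221451-25221558, 41 tags: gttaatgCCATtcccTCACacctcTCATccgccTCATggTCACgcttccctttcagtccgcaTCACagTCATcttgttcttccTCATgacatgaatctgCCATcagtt
Epb4.1l3 chr17:69623819-69623941, 14 tags: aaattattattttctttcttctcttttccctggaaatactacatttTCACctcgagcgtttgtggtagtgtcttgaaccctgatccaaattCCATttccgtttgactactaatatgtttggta
The number of YCAY in these sequences ran from 2 in Epb4.1l3 to 16 in Ank2. The Epb4.1l2 sequence was the most dense, with 9 YCAY in 108 nt.

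Clusters were concentrated in Ank2 and Ank3. Ank2, which spans 487 kb on chromosome 3, held 23 NOVA1 clusters with 556 tags and 74 NOVA2 clusters with 3356 tags. Ank3, which spans 493 kb on chromosome 10, held 24 NOVA1 clusters with 561 tags and 54 NOVA2 clusters with 2125 tags. By number of clusters among all genes, Ank2 was at rank 26 for NOVA1 and 49 for NOVA2, and Ank3 at rank 24 and 75. Both genes are long, and per 100 kb they had 15.2 and 10.9 NOVA2 clusters.

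The protein 4.1 genes varied in which protein had clusters. Epb4.1l1, the gene of the neuronal form 4.1N, held 9 NOVA1 and 10 NOVA2 clusters, with 828 and 1404 tags. Epb4.1, the gene of the red cell protein 4.1R, held 0 NOVA1 clusters and 9 NOVA2 clusters with 305 tags. Epb4.1l2 held 0 and 3 clusters, Epb4.1l3 held 1 and 6, and Ank1, the gene of the red cell ankyrin, held 0 and 2. In NOVA2 clusters per 100 kb, Epb4.1l1 had 8.18, Epb4.1 had 5.92, Epb4.1l3 had 4.51, Epb4.1l2 had 1.83 and Ank1 had 1.14. Per 100 kb Epb4.1l1 had the most NOVA1 clusters of the 7 genes, 7.36 against 4.87 in Ank3 and 4.72 in Ank2. At least 1 NOVA2 cluster was thus found in 7 of the 7 genes, where 22.7% of protein-coding genes had one. For NOVA1 it was 4 of the 7, where 12.7% had one. Those percentages cover protein-coding genes of any length and expression. The 7 genes span 122 to 493 kb and were chosen with earlier results known, so the comparison does not test enrichment. No cluster of either list lay in the 10 kb downstream of the annotated ends of these genes.

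**Figure D1:**
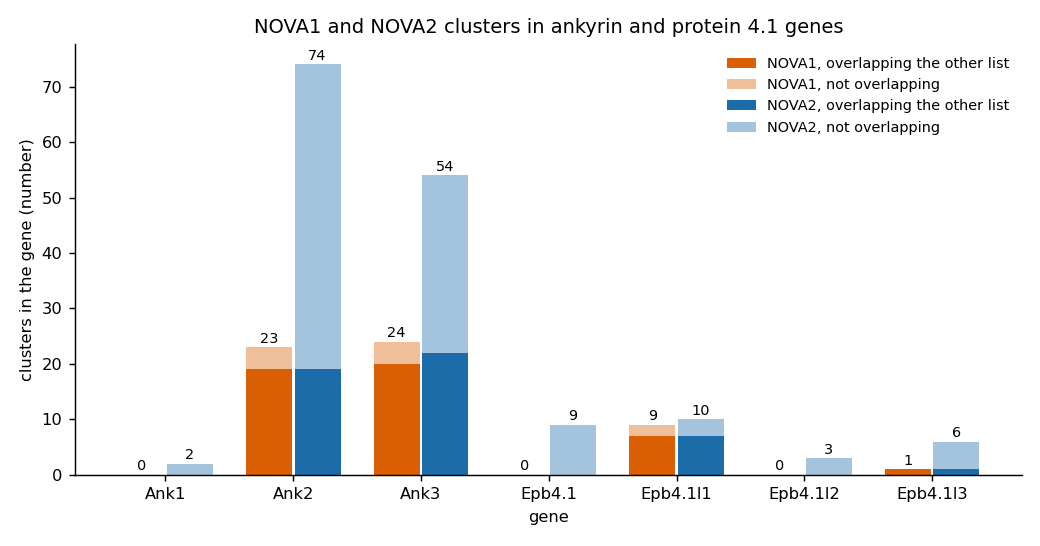
Number of clusters per gene (y axis) in the NOVA1 list (orange) and the NOVA2 list (blue), with the clusters that overlapped the other list in full colour and the others in pale colour. Ank2 and Ank3 hold most clusters, Epb4.1l1 has nearly equal numbers, and Ank1, Epb4.1 and Epb4.1l2 have NOVA2 clusters only.

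The next comparison asked whether both proteins were found at the same positions. Of the 57 NOVA1 clusters, 47 overlapped a NOVA2 cluster (82.5%, Wilson 95% interval 70.6 to 90.2), beside 80.1% in the whole list. Of the 158 NOVA2 clusters, 49 overlapped a NOVA1 cluster (31.0%, 24.3 to 38.6), beside 22.1%. That difference from the series depended on the tag minimum, since with at least 20 tags in both lists the share was 18.3% (11.7 to 27.3) beside 18.3%, and with at least 25 NOVA2 tags it was 49.4% (38.5 to 60.3) beside 44.4%. For NOVA1 clusters the latter setting gave 64.9% beside 60.8%. These intervals, like those that follow, cover counting error only, and clusters are not replicates. In Ank2 and Ank3 the overlapping NOVA2 clusters were the stronger ones, with a median of 76 against 21 tags in Ank2 and of 34 against 16.5 in Ank3, beside 47 against 16 over all NOVA2 clusters in genes.

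Epb4.1, Epb4.1l2 and Ank1 had no NOVA1 cluster for their 14 NOVA2 clusters to overlap. The strongest cluster of the 7 genes with no overlap was the one touching a cassette exon of Ank2, with 129 NOVA2 tags. In Ank3 it was an intron cluster with 128 tags at chr10:69447685-69448073, and in Epb4.1 the one printed above with 112 tags. Among the 10 NOVA1 clusters without overlap the highest number was 20 tags, in the 3′ UTR of Ank2.

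Most clusters were intronic. The intron class held 142 of 158 NOVA2 clusters (89.9%, 84.2 to 93.7), beside 83.9% of all NOVA2 clusters in genes, and 36 of 57 NOVA1 clusters (63.2%, 50.2 to 74.5), beside 45.6%. The NOVA1 share depended on the tag minimum. With at least 20 tags it was 9 of 21 (42.9%, 24.5 to 63.5), beside 1231 of 3328 NOVA1 clusters in all genes. The 3′ UTR class held 14 NOVA2 clusters (8.86%) beside 13.6%, and 18 NOVA1 clusters (31.6%) beside 42.7%. All 14 NOVA2 clusters in a 3′ UTR overlapped a NOVA1 cluster, beside 64.5% of those in all genes. Of the 109 NOVA2 clusters without overlap 108 were intronic, beside 92.4% in all genes. The other one, with 27 tags, was in coding sequence of Epb4.1l2, in an exon that begins or ends a transcript.

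Epb4.1l1 had most of its tags in the 3′ UTR in both lists. Of its 9 NOVA1 clusters 6 were in the 3′ UTR, and they carried 764 of its 828 tags. For NOVA2, 5 of 10 clusters and 1099 of 1404 tags were there. In Ank2, in contrast, 126 of 3356 NOVA2 tags were in the 3′ UTR and 3217 in introns.

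Most intronic clusters lay far from any exon, as over the whole series. Of the 142 intronic NOVA2 clusters, 114 lay more than 500 nt from the nearest exon (80.3%, 73.0 to 86.0), below the 89.6% of all intronic NOVA2 clusters. Of the 36 NOVA1 ones 28 did (77.8%, 61.9 to 88.3), beside 87.4%. The first intron of Ank3, of 251240 nt, held 31 NOVA2 clusters with 1130 tags and 9 NOVA1 clusters with 163 tags. Among them was the strongest intron cluster of the 7 genes, chr10:69074040-69074258, with 341 NOVA2 tags and, in the overlapping NOVA1 cluster, 57. It lay 77008 nt from the nearest exon. The most clusters of any Ank2 intron, 13 for NOVA2 and 4 for NOVA1, were in an intron of 63427 nt, and the strongest was chr3:126919291-126919513 with 239 NOVA2 and 19 NOVA1 tags. In Epb4.1l1 the strongest intron cluster, chr2:156356518-156356810, had 223 NOVA2 and 40 NOVA1 tags and lay 1312 nt from the nearest exon. The Ank3 and Epb4.1l1 sequences are shown as examples of strong intronic sites without an annotated exon beside them.
Ank3 chr10:69074040-69074258: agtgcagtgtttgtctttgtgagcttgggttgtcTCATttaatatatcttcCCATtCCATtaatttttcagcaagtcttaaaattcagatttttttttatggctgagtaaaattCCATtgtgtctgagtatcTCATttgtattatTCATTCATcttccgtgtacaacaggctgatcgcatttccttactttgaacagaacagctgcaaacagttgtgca
Epb4.1l1 chr2:156356518-156356810: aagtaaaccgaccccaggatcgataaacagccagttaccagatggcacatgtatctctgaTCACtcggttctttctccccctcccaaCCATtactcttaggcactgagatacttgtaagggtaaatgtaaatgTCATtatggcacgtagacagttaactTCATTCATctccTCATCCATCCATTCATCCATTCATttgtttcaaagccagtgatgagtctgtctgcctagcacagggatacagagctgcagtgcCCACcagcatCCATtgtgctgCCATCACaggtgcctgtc
They held 7 and 15 YCAY.

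**Figure D2:**
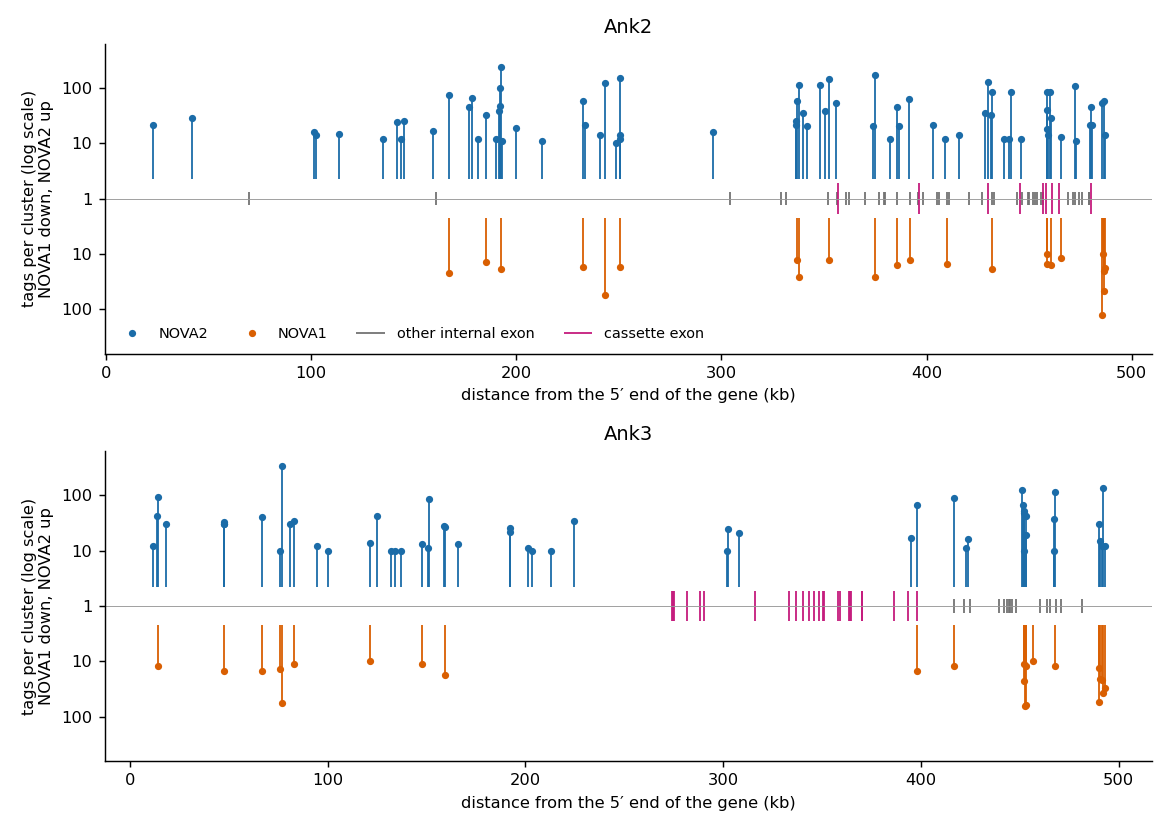
Position of each cluster along Ank2 and Ank3 (x axis, kb from the 5′ end of the gene) against its tags on a log scale (y axis, NOVA2 upward in blue, NOVA1 downward in orange), with cassette exons in magenta and other internal exons in grey. Clusters spread through the long introns of the 5′ part of both genes, and most cassette exons of Ank3 have no cluster beside them.

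The question the family poses is where clusters lay relative to alternative exons. The 7 genes had 67 cassette exons, of which 64 were coding and 58 had a length divisible by 3, and 155 other internal exons. A NOVA2 cluster touched or lay within 500 nt of 17 of the 67 cassette exons (25.4%, 16.5 to 36.9) beside 8.4% of the cassette exons of all protein-coding genes with a NOVA2 cluster. For the other internal exons it was 10 of 155 (6.45%, 3.54 to 11.5) beside 4.44%. For NOVA1, in the 4 genes with NOVA1 clusters, it was 3 of 47 cassette exons (6.38%, 2.19 to 17.2) beside 5.17%, and 7 of 87 other exons (8.05%, 3.95 to 15.7) beside 4.11%. The genes compared with needed only 1 cluster, whereas Ank2 held 74 NOVA2 clusters and Ank3 54. Exons were not matched for the number of clusters per gene. Neighbouring exons could share 1 cluster, so the exons behind these intervals are not independent.

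The members varied in how many exons had a cluster nearby. In the 4.1 genes every internal exon of these 2 kinds with a NOVA2 cluster nearby was a cassette exon, 4 of 9 in Epb4.1, 3 of 6 in Epb4.1l2, 2 of 6 in Epb4.1l3 and 1 of 7 in Epb4.1l1, and 0 of their 58 other internal exons had one. In Ank2 5 of 9 cassette exons and 8 of 41 other exons had a NOVA2 cluster nearby. Among these 5 was an exon of 6198 nt, whose length widens the stretch counted as near. It counted through a cluster of 13 tags inside it and a cluster of 29 tags that also counted for a 5-nt exon. Ank1 had a NOVA2 cluster near 1 of 5 cassette exons and 0 of 40 other exons. In Ank3 it was 1 of 25 and 2 of 16, and 23 of the 25 Ank3 cassette exons were skipped only by introns that left out at least 2 other exons as well. With such exons left out in all genes, 12 of 36 cassette exons of the 7 genes had a NOVA2 cluster nearby (33.3%, 20.2 to 49.7). Over all protein-coding genes with a NOVA2 cluster it was 10.3%, again not matched for clusters per gene.

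Counted by cluster, 18 of 158 NOVA2 clusters were near a cassette exon (11.4%, 7.33 to 17.3), beside 2.56% of NOVA2 clusters in genes. For NOVA1 it was 4 of 57 clusters (7.02%, 2.76 to 16.7), beside 2.97%. These shares also depend on how many cassette exons a gene has, which was not adjusted for. The 7 genes held 67, against 8811 in the 5076 protein-coding genes with a NOVA2 cluster. Relative to the nearest cassette exon, 4 of the 18 NOVA2 clusters were upstream, 6 touched it and 8 were downstream. Over the 832 NOVA2 clusters near cassette exons in all genes, 32.3% were upstream, 21.9% touching and 45.8% downstream. The share was 8 of 28 in the 4.1 genes (28.6%) and 10 of 130 in the ankyrins (7.69%).

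**Figure D3:**
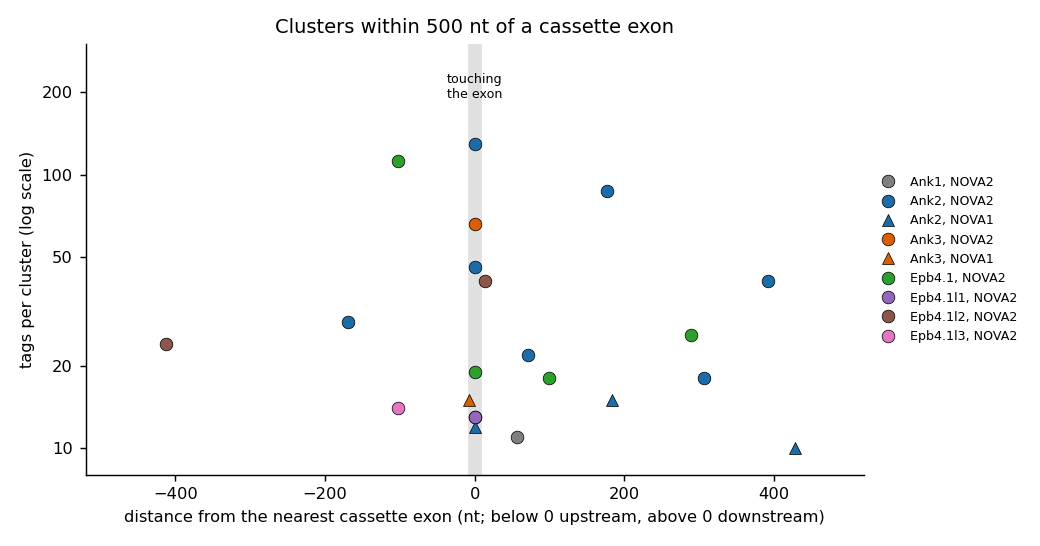
Distance from the nearest cassette exon (x axis, nt, upstream negative) against tags per cluster on a log scale (y axis) for the NOVA2 clusters (circles) and NOVA1 clusters (triangles) within 500 nt, coloured by gene. Clusters touching an exon are drawn at 0. The strongest are an Ank2 cluster that contains a whole exon (129 tags) and an Epb4.1 cluster 102 nt upstream (112 tags), and the 4 NOVA1 clusters are in Ank2 and Ank3.

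In Epb4.1 4 NOVA2 clusters were near cassette exons. The strongest, with 112 tags and 7 YCAY, lay 102 nt upstream of a 63-nt exon at chr4:131518839-131518901, and another with 18 tags lay 99 nt downstream of it. This exon, part of the spectrin and actin binding domain, was present in 9 transcripts and skipped in 9. A cluster of 19 tags overlapped a 42-nt exon further upstream (chr4:131519844-131519885), and a cluster of 26 tags lay 289 nt downstream of a 36-nt exon (chr4:131511458-131511493). NOVA1 had no cluster at any of them.

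Epb4.1l2 has a 63-nt exon at chr10:25213373-25213435 that was identical to that of Epb4.1 at 52 of 63 positions (82.5%), and the pair is shown because both carried a NOVA2 cluster upstream.
Epb4.1 exon: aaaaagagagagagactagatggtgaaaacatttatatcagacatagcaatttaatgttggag
Epb4.1l2 exon: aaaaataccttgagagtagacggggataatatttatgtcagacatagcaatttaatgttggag
Neither exon contains a YCAY. The cluster upstream of the Epb4.1l2 exon had 24 tags, 6 YCAY in 63 nt, and lay 413 nt away. The exon was present in 4 transcripts and skipped in 4. Other cassette exons of equal length in different 4.1 genes were less alike, with 16.7 to 47.2% identity.

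The strongest cluster of Epb4.1l2, with 41 tags, lay in an intron of 192 nt, 14 nt downstream of a 54-nt cassette exon (chr10:25221384-25221437) and upstream of a longer cassette exon. In Epb4.1l3 a NOVA2 cluster of 14 tags lay 103 nt upstream of a 192-nt exon (chr17:69624044-69624235). In Epb4.1l1 a cluster of 13 tags covered the end of a 36-nt exon (chr2:156337521-156337556) and the intron after it. In Ank1 a cluster of 11 tags and 8 YCAY lay 56 nt downstream of a 24-nt exon (chr8:24220819-24220842) that 7 transcripts contained and 8 skipped. The last 3 are near the minimum of the list.

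Of the 5 Ank2 cassette exons of up to 30 nt, 3 had a NOVA2 cluster within 500 nt, while those of 24 and 17 nt had none and the 5-nt exon had 29 tags. A 12-nt coding exon (chr3:126682174-126682185), annotated in 1 transcript and skipped in 4, lay inside a NOVA2 cluster of 129 tags and 16 YCAY, and its sequence held a YCAY itself.
Ank2 exon: taCCATccccag
A 22-nt exon (chr3:126653653-126653674), present in 6 transcripts and skipped in 1, had 3 NOVA2 clusters downstream, with 87, 41 and 18 tags at 177, 392 and 307 nt. NOVA1 clusters of 15 and 10 tags overlapped the first and the second of these. A 183-nt exon near the 3′ end (chr3:126631583-126631765) had 46 NOVA2 tags in a cluster that overlapped its upstream boundary and 22 tags in a cluster 71 nt downstream, with no NOVA1 cluster.

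Some strong Ank2 and Ank3 clusters adjoined exons that are not cassette exons in the annotation. In Ank2 a cluster of 144 NOVA2 tags (chr3:126759593-126759826, 13 NOVA1 tags) lay 85 nt from an exon, and one of 108 tags (chr3:126639248-126639514) lay 24 nt from an exon and had no NOVA1 counterpart. In Ank3 a cluster of 117 tags (chr10:69464451-69464729, 12 NOVA1 tags) ran into a 679-nt exon, and one of 91 tags (chr10:69413849-69413989, 12 NOVA1 tags) lay 43 nt from an exon. The only Ank3 cassette exon with a cluster, of 103 nt (chr10:69395142-69395244), had 66 NOVA2 tags across its upstream boundary and 15 NOVA1 tags ending 8 nt before it. It was present in 5 transcripts and skipped in 1.

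Clusters around the longest internal exon of Ank2 and a long open frame of Ank3 are described next. In Ank2 the longest internal exon has 6198 nt (chr3:126644528-126650725). It was counted as a cassette exon above, present in 6 transcripts and skipped in 1. Between it and the 22-nt exon before it lay 6 NOVA2 clusters with 274 tags, from 14 to 87 each, and 3 NOVA1 clusters with 41 tags. An annotated 5-nt exon (chr3:126650810-126650814) also lies in between, and 1 of the 6, with 29 tags, is 169 nt upstream of it. The 6198-nt exon itself held 1 cluster of each list, with 13 and 12 tags.

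In Ank3 the annotation used has no such exon. The intron at chr10:69444946-69457119, of 12174 nt, however contains a stretch of 7707 nt without a stop codon on the mRNA strand (chr10:69448830-69456536). Among 250 introns of the 7 genes this was the longest open stretch, and the next was 3111 nt, in Epb4.1l2. The 3884 nt of intron before it held 2 NOVA2 clusters, with 128 and 68 tags, and no NOVA1 cluster. Within it lay 6 NOVA1 clusters with 181 tags and 5 NOVA2 clusters with 173 tags, all but 1 of them in its first 1396 nt. The strongest NOVA1 one, with 64 tags against 49 for NOVA2, is shown.
Ank3 chr10:69449231-69449495: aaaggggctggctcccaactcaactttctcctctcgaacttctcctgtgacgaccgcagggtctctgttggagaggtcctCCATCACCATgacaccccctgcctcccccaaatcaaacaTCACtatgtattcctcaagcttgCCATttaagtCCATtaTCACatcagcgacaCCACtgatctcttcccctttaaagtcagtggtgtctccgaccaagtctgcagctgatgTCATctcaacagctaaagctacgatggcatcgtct
It held 9 YCAY. The next NOVA1 cluster had 61 tags against 43 and 19 in the 2 NOVA2 clusters it overlapped, and at the start of the stretch NOVA1 had 23 tags and NOVA2 52. These clusters counted as intronic in the shares above. Counted as exonic, they left 30 of 57 NOVA1 clusters (52.6%, 39.9 to 65.0) and 137 of 158 NOVA2 clusters (86.7%, 80.5 to 91.1) in introns.

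**Figure D4:**
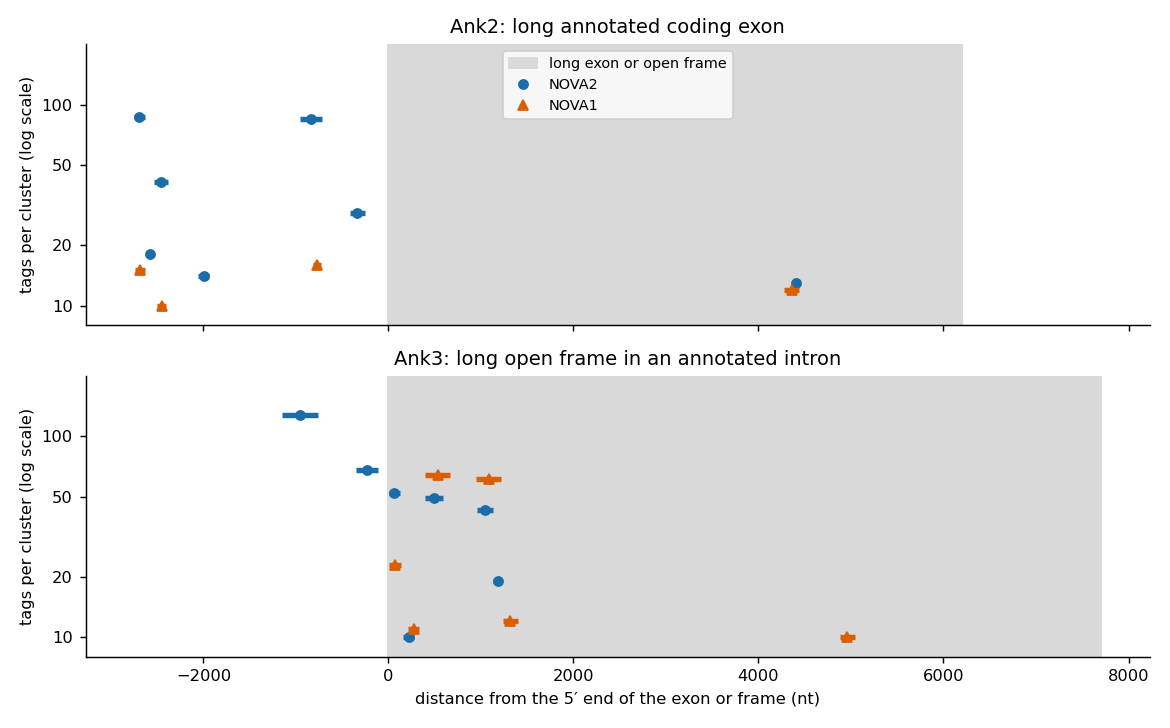
Clusters around the 6198-nt exon of Ank2 and the 7707-nt open stretch in an annotated Ank3 intron (grey), with the distance from its 5′ end on the x axis (nt) and tags per cluster on a log scale on the y axis. Bars give the extent of each cluster, NOVA2 in blue with circles and NOVA1 in orange with triangles. NOVA2 clusters precede the grey stretch in both genes, NOVA1 clusters do so in Ank2 only, and in Ank3 clusters of both proteins fill its first part.

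The tag numbers at positions found in both lists were compared next. There were 43 pairs in which each cluster overlapped exactly 1 cluster of the other list. At the 30 intronic pairs NOVA1 tags over NOVA2 tags had a median of -2.08 on the log2 scale (95% interval -2.48 to -1.49), and NOVA2 had more tags in 28. The 2 exceptions, with 64 against 49 and 11 against 10 tags, were both in the open stretch of Ank3. Without the pairs in that stretch the ratio was -2.14 (-2.58 to -1.55), and NOVA2 had more tags in all of the 27 pairs left. Over the whole series the intronic median was -2.04.

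At the 12 pairs in a 3′ UTR the median log2 ratio was 0.42 (-0.68 to 0.87), beside -0.40 over the whole series, and NOVA1 had more tags in 8. Tags were not scaled for depth, so the sign by itself does not rank the proteins, and the ratios are read against those of the series. The NOVA1 tags exceeded those of NOVA2 in 4 of 5 pairs of Ank3, 2 of 3 of Ank2 and 1 of 3 of Epb4.1l1, and in the only pair of Epb4.1l3. The interval for the 12 pairs includes the value of the series.

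**Figure D5:**
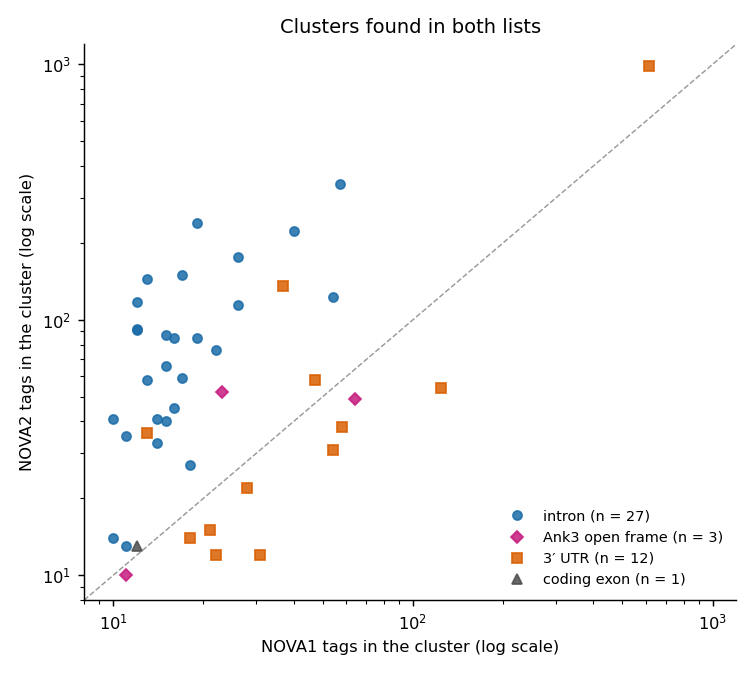
NOVA1 tags (x axis) against NOVA2 tags (y axis), both on log scales, for the 43 pairs of overlapping clusters, coloured by class. The dashed line marks equal numbers. Intronic pairs outside the Ank3 open stretch lie above the line, and 8 of the 12 pairs in a 3′ UTR lie below it.

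The strongest cluster of the 7 genes in either list lay at the end of the Epb4.1l1 3′ UTR, chr2:156368319-156368837 in the NOVA1 list, with 614 NOVA1 and 986 NOVA2 tags. It ended close to the annotated end of the gene at position 156368950. Next among the NOVA1 clusters was one in the Ank2 3′ UTR (chr3:126626209-126626735), with 124 NOVA1 and 54 NOVA2 tags. In the Ank3 3′ UTR the NOVA1 clusters had 13 to 54 tags and the NOVA2 clusters 12 to 135, and the strongest position differed, since the 135 NOVA2 tags (chr10:69489044-69489161) stood against 37 for NOVA1. The only NOVA1 cluster of Epb4.1l3 was in its 3′ UTR (chr17:69638379-69638667), with 58 NOVA1 and 38 NOVA2 tags. From the strongest NOVA1 cluster in the 3′ UTR of each of these genes the 30 nt richest in YCAY are printed.
Ank2 chr3:126626669-126626698: cccagttcTCACcagaaaCCACaaacCCAC
Ank3 chr10:69486717-69486746: ggaaaacgaaaaTCACattttttcttTCAT
Epb4.1l1 chr2:156368329-156368358: gcaccgtctcctccccctcctCCACtTCAT
Epb4.1l3 chr17:69638524-69638553: agtaacCCATcgacagcTCATgccttTCAT
The 30 nt held 2 or 3 YCAY each.

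YCAY was more frequent inside the clusters than beside them. At 158 of 158 NOVA2 and 56 of 57 NOVA1 clusters of the 7 genes there was at least 1 YCAY, beside 99.3% and 98.2% of those in all genes. Per 1000 positions there were 38.3 (35.9 to 41.0) in NOVA2 clusters against 17.8 (16.9 to 18.6) in flanks 200 to 500 nt away, a ratio of 2.16, beside 2.30 for all NOVA2 clusters in genes. In NOVA1 clusters there were 35.7 (32.1 to 39.7) against 19.3 (17.9 to 20.8), a ratio of 1.85 beside 2.03. The rate was higher in introns than in 3′ UTRs for both proteins, although the NOVA2 intervals overlap. In introns it was 39.2 (36.5 to 42.0) for NOVA2 and 46.3 (40.5 to 53.0) for NOVA1, and in 3′ UTRs 29.9 (23.9 to 37.4) and 25.3 (21.0 to 30.5). Over all NOVA1 clusters in introns the rate was 53.4, just above the interval of the 7 genes. Intronic NOVA2 clusters had 47.6 (39.3 to 57.5) in the 4.1 genes and 38.1 (35.3 to 41.1) in the ankyrins, beside 44.9 in all genes.

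Partners of ankyrins and 4.1 proteins in the membrane skeleton were listed by role, 27 genes in all. They were spectrins, adducins, tropomodulins, further 4.1 relatives, the red cell skeleton genes Epb4.2 and Epb4.9, adhesion molecules of the L1 family and channels that bind ankyrin. NOVA2 clusters were found in 20 of them, 228 in all, and NOVA1 clusters in 16, 103 in all. Of protein-coding genes of any length and expression, 22.7% had a NOVA2 cluster and 12.7% a NOVA1 cluster. In the partners, 171 NOVA2 clusters (75%) and 33 NOVA1 clusters (32.0%) were intronic. These shares were below the 83.9% and 45.6% of all clusters in genes, whereas those of the 7 genes, 89.9% and 63.2%, were above. Near a cassette exon were 16 of the 228 NOVA2 clusters (7.02%), compared with 11.4% in the 7 genes and 2.56% of all NOVA2 clusters in genes. The partners with the most NOVA2 clusters were the L1 family gene Chl1 (19 NOVA1 and 57 NOVA2), the potassium channel gene Kcnq3 (6 and 38), the L1 family gene Nrcam (12 and 36) and the sodium channel gene Scn2a1 (11 and 18). Among spectrins, Spnb2 had 11 and 15, and the actin capping gene Tmod2 had 18 and 16, nearly all of them in its 3′ UTR, which for NOVA1 was the highest number after Chl1. Genes with no cluster in either list were Spna1, Spnb5, Tmod1, Tmod4 and Epb4.2.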

How the data were processed

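Per the labels and the methods of the study, the authors aligned tags to mm9 with Novoalign (version not given in the sources used here), removed PCR duplicates, grouped overlapping tags into clusters and deposited 1 list per protein, pooled over 3 libraries. Clusters had to occur in at least 2 of the 3 libraries. The deposited values are whole tag counts per cluster, not normalized, and started at 10. The study calls that minimum a peak height, and the sources used here do not say whether each deposited value is the height or the total.

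Clusters were classed by the GENCODE vM1 feature that covered most of their nucleotides (coding sequence, then UTRs, other exons and introns where features coincided). Transcripts annotated as retained introns were left out. Cassette exons, distances (500 nt), overlaps (1 nt, same strand), YCAY counts and open frames were computed with pysam 0.24.0, SciPy 1.17.1, pandas 2.3.3 and NumPy 2.4.6 in Python 3.11.15. Distances, overlaps and YCAY counts were checked on simulated data, but cassette exons and open frames were not. Shares have Wilson intervals, and medians have binomial ones. Higher tag minimums, other distances, overlap and class rules, transcript sets and flanks were tried as alternatives.

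The genes, the partner list, the tests and the rule for named clusters (per gene, the highest by tags, the highest without overlap and up to 5 near cassette exons) were chosen with earlier results of these data known. The clusters beside exons that are not cassette exons, the open stretch in Ank3 and the comparison of 63-nt exons were chosen after their values were seen. Clusters below 10 tags, single libraries and RNA-seq were not analysed here.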

Additional observations from a re-analysis of the deposited data

How the results depend on the processing

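No paired analysis was possible because the deposited lists hold 1 pooled value per cluster, which also means that libraries could not be left out in turn. Of 83 values under alternative settings, 60 stayed close to the main value and 23 moved. With at least 20 tags in both lists the NOVA1 clusters fell to 21 (Ank2 7, Ank3 9, Epb4.1l1 4) and the NOVA2 clusters to 93 (Ank1 0, Ank2 47, Ank3 30, Epb4.1 5, Epb4.1l1 6, Epb4.1l3 2). With at least 25 tags for NOVA2 alone they were 77 (Ank1 0, Ank2 37, Ank3 28, Epb4.1 4, Epb4.1l1 5, Epb4.1l3 1), which is fewer clusters by construction. The overlapping share of NOVA2 clusters was 18.3% at 20 tags and 49.4% with the NOVA2 minimum of 25, and that of NOVA1 clusters 64.9% with the latter. At 20 tags the NOVA1 share in introns was 42.9%, and the NOVA1 share near cassette exons was 0% (0 of 21). Within 200 or 1000 nt of a cassette exon, or with protein-coding transcripts only, the NOVA2 share of cassette exons stayed between 20.9 and 31.3%. Counting clusters in the Ank3 open stretch as exonic, leaving out pairs there, and restricting cassette exons by what else is skipped were added after seeing the data.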
